A study of Mus musculus with 2 samples.

Results

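miR-142a is a single hairpin that gives 2 mature miRNAs, miR-142a-3p and miR-142a-5p. Both were taken from the array by name (mmu-miR-142a-3p and mmu-miR-142a-5p), as 2 of 1881 mouse miRNAs. They were measured in bone marrow LSKs, the lineage-negative, Sca1-positive and c-Kit-positive fraction with the hematopoietic stem cells and early progenitors. Group 0W_LSK was LSKs of Scl/tTA-BCR/ABL (Scl-BA) mice on the C57BL/6 background at 0 weeks after doxycycline withdrawal, and group 3W_LSK was LSKs of such mice at 3 weeks. In this tet-off line the Scl-driven tTA activator drives BCR/ABL, the oncogene of chronic myeloid leukemia, once doxycycline is removed from the water, where it was given at 20 mg/L. Mice of both groups carried the transgenes, and no ages were given in the labels. Each group was 1 array of cells mixed from 3 mice. The 2 groups could therefore not be tested against each other, and the array differences have no replicate array. Apart from the arrays, the study reported by quantitative PCR on LSK samples that both arms were significantly lower after BCR/ABL was induced. The study also reported both arms to be lower in a myeloid cell line with enforced BCR/ABL. In that line both arms rose under an inhibitor of the kinase ERK. Neither array held LSKs of mice without BCR/ABL that were taken off doxycycline, so the transgene, the drug's removal, the elapsed time and the pool cannot be told apart.

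A miRNA hairpin is cut by Drosha and Dicer into a duplex, and either strand can be loaded into an Argonaute protein to repress mRNAs that pair with its seed, bases 2 to 8. miR-142 is known as a miRNA of blood cells, present throughout the hematopoietic lineages and nearly absent elsewhere, with roles in lymphocytes, dendritic cells, megakaryocytes and platelets. The study asked how miRNA levels of LSKs change once BCR/ABL is induced.

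The mature sequences are shown because each arm has its own seed and therefore its own targets, and because the array reads each arm with probes of its own. They were taken from RefSeq (GRCm38.p6), where all 3 names of the locus matched, and the capitals mark the seed.
miR-142a-3p: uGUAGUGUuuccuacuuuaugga
miR-142a-5p: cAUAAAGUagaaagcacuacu
miR-142b: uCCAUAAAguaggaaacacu
The hairpin that holds both arms follows, with the 5p arm first and the 3p arm second in capitals.
Mir142 hairpin: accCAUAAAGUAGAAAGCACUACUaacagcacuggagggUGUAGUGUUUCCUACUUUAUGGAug

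The hairpin gene Mir142 has 64 bases and lies on the plus strand of chromosome 11, from 87756864 to 87756927. The 5p arm runs from 87756867 to 87756887 and the 3p arm from 87756903 to 87756925, with 15 bases between them. These starts equalled the positions that the deposited table gives for both arms. In the fold predicted by RNAfold, 19 of the 21 bases of the 5p arm pair with the 3p arm. No protein-coding gene of the RefSeq table overlapped the hairpin. The nearest one was Tspoap1, 1.27 kb away, and Mpo, which encodes the myeloperoxidase of neutrophil granules, began 36.86 kb away. Mir142b is annotated over the same bases on the minus strand, from 87756841 to 87756955, and its product miR-142b, from 87756906 to 87756925, lies opposite bases of the 3p arm. The 2 arms do not share a seed, and none of the other 1678 mature miRNA names in the table had the seed of either arm at bases 2 to 8 (0 for the 3p arm and 0 for the 5p arm).

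Each arm was read by 2 probes with 15 spots each, so 30 spots per arm and array. The probes are shown because they set which molecules the signals count. They are DNA strands complementary to the miRNA, written 5′ to 3′ without capitals.
miR-142a-3p, 23-base probe: tccataaagtaggaaacactaca
miR-142a-3p, 22-base probe: tccataaagtaggaaacactac
miR-142a-5p, 19-base probe: agtagtgctttctacttta
miR-142a-5p, 18-base probe: agtagtgctttctacttt
The 23-base probe pairs with bases 1 to 23 of miR-142a-3p and the 22-base probe with bases 2 to 23. The 19-base probe pairs with bases 3 to 21 of miR-142a-5p and the 18-base probe with bases 4 to 21, so the first bases of the 5p arm lay outside both probes. Over the other mature miRNAs, the longest unbroken run shared with the target of a probe was 9 bases for the 3p arm. For the 5p arm it was 13 bases, in miR-3964, which was detected on neither array.

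The week-0 array detected 178 miRNAs and the week-3 array 193, with 158 shared and 213 on at least 1 array. Detection followed the flag of the scanner software, which requires a probe total above 3 times its error. Negative control spots had a median signal of 4.72 on the week-0 array and 4.59 on the week-3 array. Both arrays lay on 1 slide. Markers of LSKs were present: all 6 stem and progenitor miRNAs listed for the check were detected on both arrays, and 0 of 4 stromal miRNAs was.

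Both arms were detected on both arrays, and every one of their 4 probes had a lower signal at week-3. Signals are processed signals, which are background-subtracted and in arbitrary units, before any scaling between arrays. They are given per spot with outlier spots left out.

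For miR-142a-3p, the 23-base probe had a mean of 851 ± 48.1 (SD, n = 14 spots) at week-0, with a lowest spot of 747, a median of 863 and a highest of 920. At week-3 it had 497 ± 44.0 (SD, n = 15 spots), from 388 through a median of 500.3 to 553. The spots of the 2 arrays did not overlap. The 22-base probe gave 378 ± 27.1 (SD, n = 14 spots) at week-0, from 341 through 373 to 435. At week-3 it gave 218 ± 13.2 (SD, n = 15 spots), from 197 through 219 to 241, again without overlap. The ratio of week-3 to week-0 was 0.584 for the longer and 0.576 for the shorter probe, that is log2 ratios of -0.78 (SE 0.04) and -0.79 (SE 0.04). The 2 probes differed by 0.02 (SE 0.05) on the log2 scale, less than their spot error.

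For miR-142a-5p, the 19-base probe had a mean of 93.7 ± 7.57 (SD, n = 15 spots) at week-0, from 83.0 through a median of 91.6 to 107. At week-3 it had 45.9 ± 3.03 (SD, n = 14 spots), from 41.6 through 45.9 to 51.3. The week-3 spots all lay below the lowest week-0 spot. The 18-base probe gave 93.0 ± 6.31 (SD, n = 15 spots) at week-0, from 83.6 through 93.3 to 104, and 43.9 ± 4.93 (SD, n = 14 spots) at week-3, from 34.4 through 43.8 to 54.3. The ratios were 0.490 and 0.472, or log2 ratios of -1.03 (SE 0.04) and -1.08 (SE 0.05). These differed by 0.06 (SE 0.06), about their error.

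**Figure D1:**
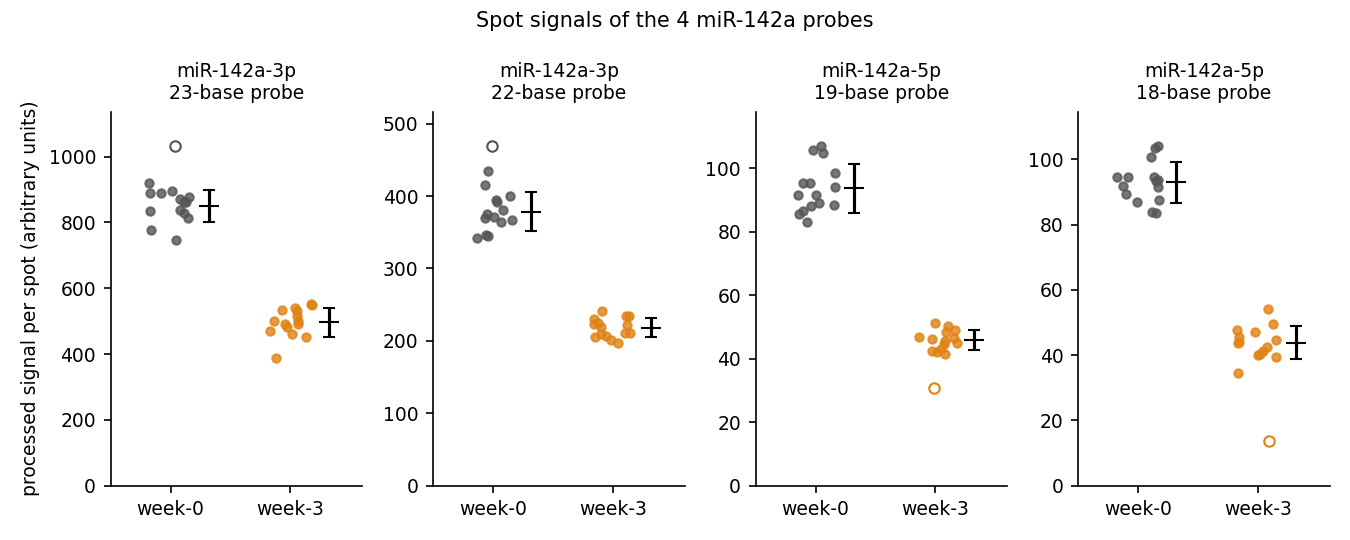
Processed signal (vertical axis, arbitrary units, starting at 0) of the 15 spots of each miR-142a probe on both arrays. Filled points entered the mean, open points were marked as outliers by the scanner software, and black bars give the mean ± SD over the filled points. In each probe every week-3 spot lies below every week-0 spot.

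Scanner software marked 4 of these spots as outliers. Both in the 3p arm were high at week-0, with 1034 for the 23-base and 470 for the 22-base probe. Both in the 5p arm were low at week-3, with 30.7 for the 19-base and 13.6 for the 18-base probe. Each of the 4 lay on the side that would enlarge the difference. With them, the log2 difference after quantile scaling was -0.44 for the 3p arm and -0.88 for the 5p arm.

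The 2 arrays carry the same probe at the same place, so each spot could be set against its counterpart. Before scaling, all 60 of 60 spot pairs were lower at week-3, 30 in each arm, and all 60 had a ratio of 0.67 or less. After quantile scaling, the ratio of the 3p arm as a whole was 0.746, short of 0.67. The ratio was below a log2 value of -1 in 22 of 30 pairs of the 5p arm and in 3 of 30 pairs of the 3p arm. Spots of an array share their RNA, so these counts describe the 2 arrays and not mice.

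The ratio was also taken in the upper and the lower rows of the array, with pairs that hold an outlier left out. For the 23-base probe the mean log2 ratio was -0.81 ± 0.10 (SD, n = 9 pairs) in the upper rows and -0.73 ± 0.06 (SD, n = 5 pairs) in the lower rows. For the 22-base probe it was -0.84 ± 0.11 (SD, n = 6 pairs) and -0.77 ± 0.14 (SD, n = 8 pairs). In the 5p arm, the 19-base probe had -0.98 ± 0.08 (SD, n = 4 pairs) above and -1.06 ± 0.14 (SD, n = 10 pairs) below. The 18-base probe had -1.14 ± 0.21 (SD, n = 9 pairs) and -1.03 ± 0.17 (SD, n = 5 pairs). The upper and lower rows thus differed by at most 0.12 for each probe, and 3 of the 4 probes had the lower ratio in the upper rows.

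**Figure D2:**
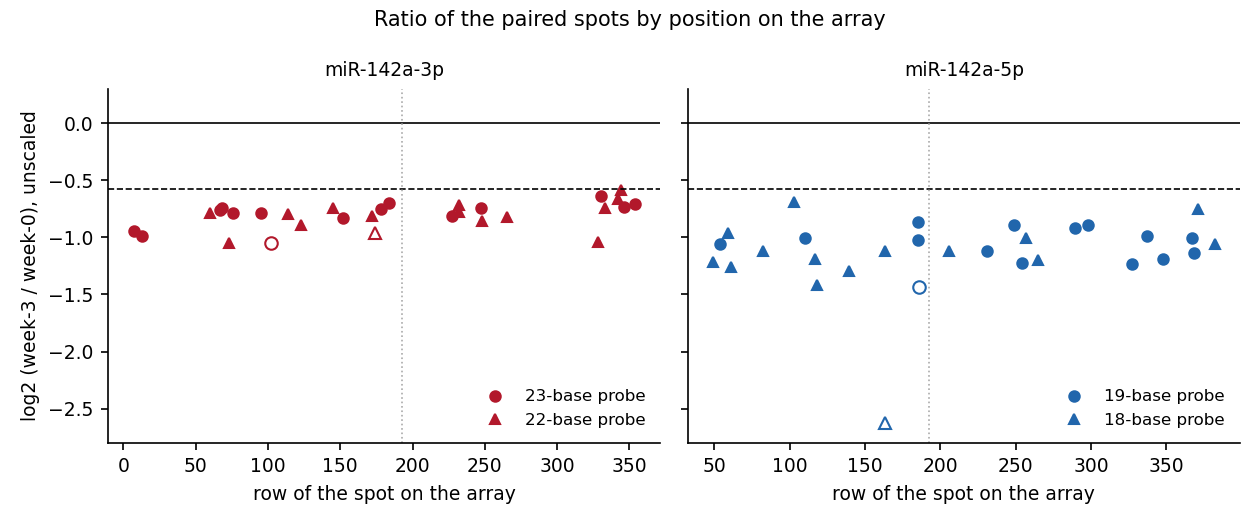
Unscaled log2 ratio of week-3 to week-0 (vertical axis) for each pair of spots, by the row of the spot on the array (horizontal axis), for the 3p arm (left) and the 5p arm (right). Open symbols hold an outlier spot, the dashed line is a ratio of 0.67 and the dotted line separates the upper from the lower rows. All 60 pairs lie below the dashed line.

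miR-142b, encoded opposite the 3p arm, served as a check of the strand, since its probes carry the sequence of miR-142a-3p itself. It was detected on neither array. On either array 0 of its 30 spots was well above background. The spots ran from -9.10 to 6.37 with a median of -2.25 at week-0, and from -5.52 to 5.30 with a median of -0.86 at week-3. All of these lay below the lowest spot of either arm.

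The probe means of each arm were then summed and compared with all other miRNAs. miR-142a-3p had 1229 at week-0 and 715 at week-3, an unscaled ratio of 0.582 or 1.72-fold lower. miR-142a-5p had 187 and 89.8, a ratio of 0.481 or 2.08-fold lower. The scanner's own total signals per miRNA gave 261 and 152 for the 3p arm and 39.6 and 19.0 for the 5p arm, on a different scale and with the same ratios of 0.582 and 0.481. For both arms that total equalled the sum over its probes.

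Among the detected miRNAs ordered by signal, miR-142a-3p went from place 11 of 178 at week-0 to place 16 of 193 at week-3. miR-142a-5p went from place 56 of 178 to place 81 of 193. Places among signals do not rank abundance, because probes bind with different strength, but each arm can be compared with itself. The share of the signal of all detected miRNAs fell from 2.07% to 1.16% in the case of miR-142a-3p. For miR-142a-5p it fell from 0.314% to 0.145%. At week-0 the 3p arm lay between miR-20a-5p, a member of the miR-17-92 cluster with 1277, and let-7i-5p with 1170. At week-3 these neighbours had 1011 and 680. let-7i-5p, of the let-7 family that restrains proliferation, had a log2 difference of -0.47 after quantile scaling and miR-20a-5p one of 0.00, since its place was 10 on both arrays. The 5p arm lay between miR-6769b-5p with 186.9 and miR-125b-5p with 186.1 at week-0. At week-3 they had moved apart to 260.2 and 40.8, with miR-142a-5p in between at 89.8. miR-125b-5p is a miRNA of stem and progenitor cells. On the week-3 array the 3p arm lay just below let-7a-5p, which had 1465 at week-0 and 755 at week-3, and again above let-7i-5p. The 5p arm there lay between miR-6969-5p with 89.9, which was undetected at week-0, and miR-5099 with 89.755, which had 32.1 at week-0.

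After quantile scaling of these sums, the log2 difference was -0.80 (SE 0.03 over spots) for miR-142a-5p, a ratio of 0.576. It was -0.42 (SE 0.03) for miR-142a-3p, a ratio of 0.746. The 5p arm thus passed the study's threshold of 0.67 and the 3p arm did not. These SEs come from the spots before scaling and hold no error of the scaling itself. The unscaled log2 differences were -1.06 for the 5p arm and -0.78 for the 3p arm. Of the 213 miRNAs detected on at least 1 array, 61 or 28.6% had a ratio of 0.67 or lower, and 55 or 25.8% one of 1.5 or higher, so passing the lower threshold was common among the detected miRNAs. Ordered from the lowest difference up, the 5p arm had place 29 and the 3p arm place 53 of the 158 miRNAs detected on both arrays, whose median was -0.04. Without scaling both arms passed 0.67, as did 76 of 213 miRNAs or 35.7%, and their places were 27 and 45 of 158. The median of the 158 was then -0.18, so the detected miRNAs as a whole also lay below 0 on that scale. In bulk samples, fewer cells that express a miRNA and less of it per cell cannot be told apart.

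**Figure D3:**
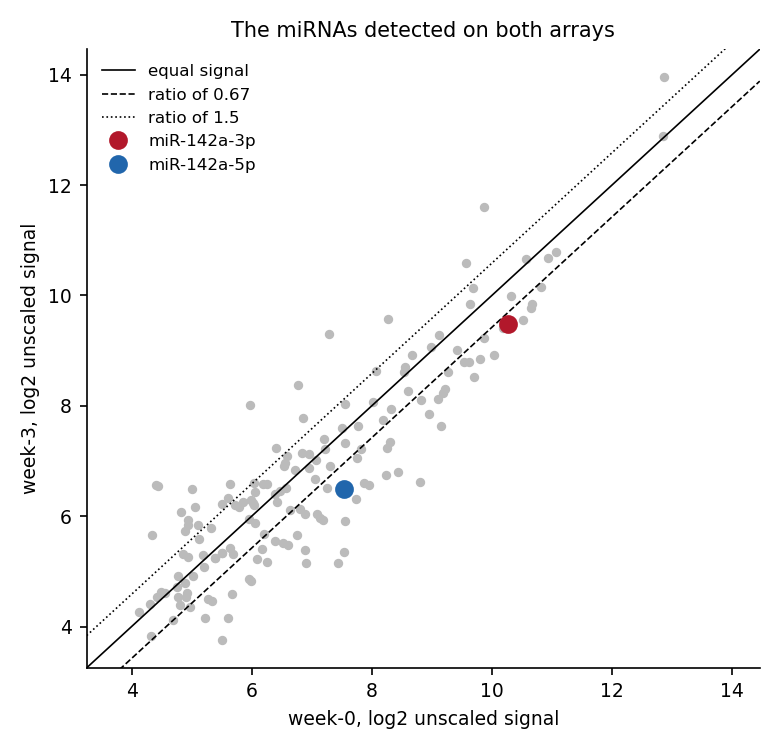
Unscaled log2 signals at week-0 (horizontal axis) against week-3 (vertical axis), for the 158 miRNAs detected on both arrays, 1 grey point each, with the arms of miR-142a in colour. The solid line marks equal signals and the broken lines the ratios 0.67 and 1.5. Both arms lie below the line of 0.67, as do many other miRNAs.

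The spike-in controls of the array gave a further scale, chosen after the data were seen. The 4 controls marked as spike-ins had ratios of week-3 to week-0 of 0.772 (dmr_31a), 0.792 (dmr_285), 0.959 (dmr_3) and 0.959 (dmr_6). In that order, they had mean signals of 1409, 3364, 27313.5 and 15213 at week-0, so the dimmer controls had the lower ratios. With the mean of all 4 controls set equal, miR-142a-3p had a log2 difference of -0.57, a ratio of 0.672 just short of 0.67. With the lowest and the highest control in turn it had -0.41 and -0.72. miR-142a-5p had -0.85 with the mean and -0.68 and -0.995 with these controls, past 0.67 each time. The amount of RNA and of spike-in added to each labelling was not given in the sources used here.

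In the authors' normalized table, on the log2 scale, miR-142a-3p had 9.32 at week-0 and 8.85 at week-3, and miR-142a-5p had 6.81 and 5.62. All 4 values carried the flag for a signal different from background. The differences were -0.47 for the 3p arm, a ratio of 0.721, and -1.19 for the 5p arm, a ratio of 0.439. By those values 53 of 213 detected miRNAs or 24.9% had a ratio of 0.67 or lower, with the 5p arm among them and the 3p arm not. The study's text names both arms among its dysregulated miRNAs. Over 16 other ways of processing, both arms had a lower signal at week-3 in all 16. The 5p arm passed 0.67 in 15 of them and the 3p arm in 3, which were the values without scaling, those scaled to the 75th percentile of all miRNAs and those of the brightest probe alone.

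**Figure D4:**
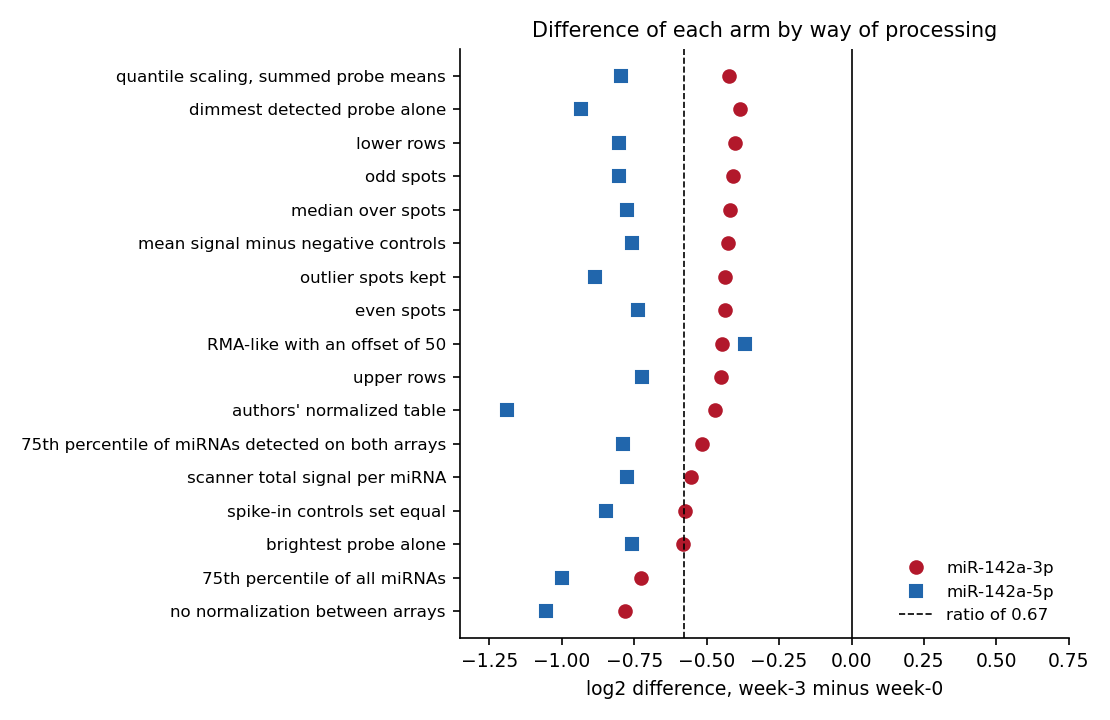
Log2 difference of week-3 minus week-0 (horizontal axis) for miR-142a-3p (circles) and miR-142a-5p (squares) under quantile scaling of summed probe means (top) and 16 other ways of processing. The dashed line is a ratio of 0.67. All points lie below 0, the 3p arm from -0.78 to -0.39 and the 5p arm from -1.19 to -0.37.

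The balance of the arms was compared within each array, where a scale common to all signals cancels. A scale that differs between bright and dim signals would not cancel. The dimmer spike-in controls had the lower ratios of week-3 to week-0, and the 5p arm was the dimmer arm. Whether such a difference entered the balance was not tested. The summed signal of miR-142a-3p was 6.59 times that of miR-142a-5p at week-0 and 7.96 times at week-3. As the probes differ, these ratios do not say which arm was more abundant, only how the balance moved. It moved toward the 3p arm by 0.27 on the log2 scale (SE 0.04 over spots), or 1.21-fold. Each of the 4 pairings of a 3p with a 5p probe gave the same direction, with changes of 0.31 (SE 0.06), 0.25 (SE 0.06), 0.29 (SE 0.06) and 0.23 (SE 0.05). After quantile scaling the change was 0.38 (SE 0.04), and in the authors' table it was 0.72. The RMA-like summary, whose offset of 50 draws dim signals together, turned it to -0.079. With 1 array per group, the spread of this balance between mice is not known.

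The other hairpins with both arms detected on both arrays gave a frame for this value. There were 6 such hairpins with miR-142a. In 3 of the 6 both arms were lower at week-3, miR-142a, miR-140 and miR-3620, and in the other 3 the arms went opposite ways. After quantile scaling the differences of miR-3620 were within their SE, at -0.06 (SE 0.09) for the 5p arm and -0.12 (SE 0.13) for the 3p arm. Without scaling they exceeded it, at -0.11 and -0.25. The opposite ways of miR-17 and miR-21a rest on miR-17-5p and miR-21a-3p. After quantile scaling these exceeded their SE, at 0.29 (SE 0.12) and 0.31 (SE 0.16). Without scaling they were within it, at 0.10 and 0.14. The change of balance toward the 3p arm after quantile scaling was 0.38 for miR-142a, 0.42 for miR-21a, -0.07 for miR-3620, -0.18 for miR-140, -0.66 for miR-17 and -0.70 for miR-466i. By size that of miR-142a was the third smallest of the 6. The arms of miR-142a had the smallest errors after the 5p arms of miR-466i (SE 0.02) and miR-21a (SE 0.02).

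**Figure D5:**
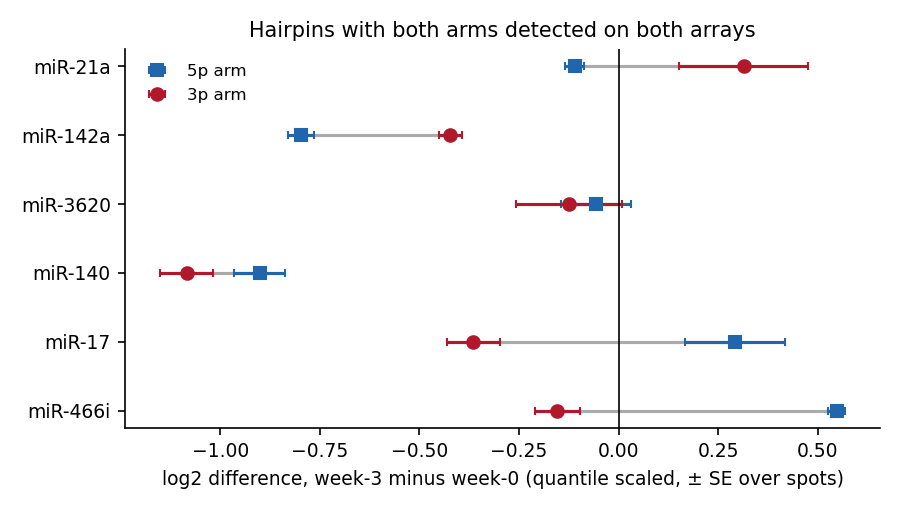
Log2 difference of week-3 minus week-0 after quantile scaling (horizontal axis) for the 5p arm (squares) and 3p arm (circles) of the 6 hairpins with both arms detected on both arrays. Bars give the SE over spots, computed before scaling. For miR-142a both arms lie below 0, the 5p arm at -0.80 and the 3p arm at -0.42.

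The miRNAs with differences nearest to each arm were named by their distance on the log2 scale, over 2 arrays only. For miR-142a-3p these were miR-16-5p with -0.43 (SE 0.03), miR-25-3p with -0.41 (SE 0.03) and miR-669f-3p with -0.41 (SE 0.11). miR-16-5p had signals of 788 and 445, and miR-25-3p, of the cluster within Mcm7, had 452 and 274. For miR-142a-5p they were miR-29a-3p with -0.81 (SE 0.02), miR-146b-5p with -0.78 (SE 0.07) and miR-181b-5p with -0.75 (SE 0.06). miR-29a-3p, which represses collagen and DNA methyltransferase mRNAs, had signals of 1051 and 482.

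A list of 10 other miRNAs of blood cells, chosen with earlier results of these data known, gave a comparison of kind. Of these 10, 6 were detected on at least 1 array, of which 1 was higher, 4 were lower and 1 lay within the thresholds. Over all 213 detected miRNAs 25.8% were higher and 28.6% lower by the same thresholds. As 3 of the 6 were undetected at week-3, no median over the list is given. miR-223-3p, the miRNA of granulocytes and their precursors, had 820 at week-0 and 1121 at week-3, a log2 difference of 0.84 (SE 0.02). It thus went against both arms of miR-142a. miR-155-5p, which acts in activated lymphocytes and myeloid cells, had 111 and 70.0, a difference of -0.57 (SE 0.04) and a ratio of 0.673. miR-181a-5p, known from lymphoid development, had 118 and 41.8, or -1.30 (SE 0.06). The other 3, the NF-kB brake miR-146a-5p with 36.8, the erythroid miR-451a with 48.9 and the lymphocyte-linked miR-342-3p with 27.5, were detected at week-0 only.

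Marker miRNAs of LSKs and of other blood cells also differed between the arrays. The marker lists were chosen with earlier results of these data known, so their counts are no independent contrast to the share over all miRNAs. The summed signal of 6 miRNAs of stem and early progenitor cells went from 1455 to 408, with all 6 past 0.67 against 28.6% of all detected miRNAs. That of the granulocyte pair miR-223-3p and miR-223-5p was 812 and 1113, opposite in direction to the arms, with miR-223-5p undetected on both arrays. Of 3 erythroid miRNAs, miR-451a alone was detected, at week-0, so their sum of 46.5 stands against a week-3 sum of 3.03 that holds background values only. That of 3 lymphocyte miRNAs was 151 and 79.8, with miR-150-5p undetected on both arrays and miR-342-3p at week-3. Their part in the lower signal of miR-142a was not tested.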

How the data were processed

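Sorted LSKs gave total RNA that was labelled (Cy3) for Agilent mouse miRNA microarrays, 1 array per group. Per the file headers, the authors extracted spot intensity values with Feature Extraction 10.7.1.1. The processed signal is background-subtracted and not normalized between arrays. The authors also deposited log2 normalized signals, quantile normalized with AgiMicroRna per the methods. How that table treated background and spots is not given in the sources used here.

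Control spots and outlier spots were left out, processed signals were averaged per probe and summed per miRNA, quantile normalized over 1881 miRNAs and, after a floor of 0.5, taken to log2 (Python 3.11.15, pandas 2.3.3). The RMA-like alternative used normexp with an offset of 50 (limma 3.58.1 in R 4.3.3). The fold was predicted with RNAfold 2.7.2. The scaling and counting were also run on simulated arrays with a single constant scale and little noise. There, equal numbers of miRNAs were raised and lowered, and fewer than passed the thresholds here. As those settings differ from the real arrays, that run does not vouch for the values here. Errors are SE over spots, combined over probes and arrays, and cover technical error within an array only. They were computed before scaling between arrays and hold no error of the scaling. The number of arrays limits the precision. Thresholds were the study's ratios of 1.5 and 0.67. The named miRNAs were the members, miR-142b, their neighbours in signal rank, the 3 nearest differences per arm, the hairpins with both arms detected and the blood list. Alternatives covered scaling, probe and spot summaries, background, outliers, and subsets of spots by number or row. The members and lists were chosen with earlier results of these data known. The series table repeats the normalized values and was not used.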

Additional observations from a re-analysis of the deposited data

How the results depend on the processing

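Both arms stayed lower at week-3 under all 16 alternatives, and 11 values of the 3p arm and 12 of the 5p arm moved by less than 1 SD over spot pairs (0.11 and 0.17). The 3p arm moved further without normalization (-0.78), with the 75th percentile of all miRNAs (-0.73), the brightest probe (-0.58), the scanner total signal (-0.55) and the spike-in controls (-0.57, added after the data were seen). The 5p arm moved further without normalization (-1.06), with the 75th percentile of all miRNAs (-1.001), the authors' table (-1.19) and the RMA-like summary (-0.37, short of 0.67), whose offset draws dim signals together by construction. The change of balance was 0.72 in the authors' table and turned to -0.079 with the RMA-like summary. The causes of the other shifts were not tested.

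The counts of miRNAs past the thresholds were 55 higher and 61 lower. They were 11 and 10 with the RMA-like summary and 200 and 233 with no filter on detection, where most miRNAs lie at background. With detection required on both arrays they were 30 and 42. Higher miRNAs made up 47.4% of those past a threshold, 36.1% without normalization and 37.8% with the 75th percentile of all miRNAs.

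Leaving out an array was not possible with 1 array per group. No paired analysis was possible because each group holds 1 sample.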
